A study of Mus musculus with 6 samples.

Results

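The genes of the conjugation enzymes were examined in intestinal organoids of Apc Min mice, epithelial cultures grown in organoid medium and labelled as primary cells. They comprised the glutathione transferases (GST), the UDP-glucuronosyltransferases (UGT) and the cytosolic sulfotransferases (SULT). Members were the rows of the deposited table whose symbol begins with Gst and a class letter (a, k, m, o, p, t or z) and a digit, with Mgst and a digit, with Ugt1, Ugt2 or Ugt3, or with Sult1 to Sult6. The choice used the name alone and gave 66 of 24956 genes, of which 25 were GST genes, 20 UGT genes and 21 SULT genes. The treatment was DM-aKG, dimethyl α-ketoglutarate, an ester that enters cells and yields the citric acid cycle metabolite α-ketoglutarate. It had been given in 3 samples of Apc Min organoids, and these were set against 3 samples of Apc Min organoids with a control treatment. Every library thus carries the Apc Min genotype, in which Apc, a brake on Wnt signalling, bears a nonsense mutation. The sources used here do not give the dose, the duration, the control substance, the age of the mice or whether replicates came from separate mice or cultures, so p-values measure only the spread between these samples.

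Conjugation makes foreign compounds and endogenous metabolites more soluble and ready for export. Glutathione transferases join the thiol of glutathione to electrophiles such as oxidised lipids. The cytosolic enzymes fall into classes named by Greek letters, and the membrane-bound ones (MGST) form a separate protein family. UDP-glucuronosyltransferases sit in the membrane of the endoplasmic reticulum and transfer glucuronic acid from UDP-glucuronate to bilirubin, steroids and phenols. Sulfotransferases transfer sulfate from the donor PAPS. The intestinal epithelium is known to express enzymes of all these kinds, which meet compounds taken up with food, and several GST genes are known targets of the antioxidant transcription factor NRF2.

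Levels are in RPKM (read density scaled by transcript length and by library size), so they can be set beside each other between genes. The depth, estimated from the steps between the lowest values of short RNA genes, was 32675000 to 34300000 reads per library, so that 1 RPKM on a transcript of 1 kilobase stands for 32.7 to 34.3 reads. All 8 epithelial markers were expressed, 5 of them higher in DM-aKG and 2 lower, with Epcam at 327 to 342 RPKM in DM-aKG libraries and 417 to 426 RPKM in control libraries. Higher and lower here mean a call at an adjusted p under 0.05 in the limma fit described below. Over all tested genes 30.9% were higher and 24.7% lower. The summed level of 9 fibroblast and muscle markers was at most 0.12 RPKM in any library, with 3 of the 9 listed at 0 throughout, that of 8 immune markers at most 1.43 RPKM and that of 7 endothelial and glial markers at most 1.49 RPKM. Goblet cell markers summed to 706 to 1003 RPKM in DM-aKG libraries and 2101 to 2261 RPKM in control libraries, with 7 of 9 tested genes lower and 0 higher. Paneth cell markers summed to 789 to 1769 RPKM in DM-aKG libraries and 2287 to 2966 RPKM in control libraries, with 6 of 8 lower and 1 higher, and DM-aKG replicate 1 stood apart from the other DM-aKG libraries at the upper end. Enteroendocrine markers summed to 617 to 628 RPKM in DM-aKG libraries and 443 to 469.5 RPKM in control libraries, with 6 of 9 tested genes higher and 1 lower. Among 12 enterocyte markers, 3 were higher and 2 lower, and their sum was 2307 to 2436 RPKM in DM-aKG and 2123 to 2413 RPKM in control libraries. In bulk RNA, fewer cells of a type and less RNA per cell cannot be told apart, and the part of these cell type shifts in the results that follow was not tested.

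The summed level of the 66 genes was higher in DM-aKG, and most of that difference lay in the glutathione transferases. The sum over all members was 7224, 7470 and 7373 RPKM in the 3 DM-aKG libraries, against 3801, 3428 and 3748 RPKM in the 3 control libraries. As a share of all RPKM in the library this was 2.04% ± 0.0342 in DM-aKG and 0.985% ± 0.0619 in control (mean ± SD, n = 3 per group, as in all that follows). The groups are well apart, with the lowest DM-aKG library far above the highest control. GST and MGST genes together summed to 6396 ± 119 RPKM in DM-aKG and 2813 ± 147 RPKM in control. The UGT genes summed to 803 ± 8.51 RPKM in DM-aKG and 715 ± 50.4 RPKM in control, and the SULT genes to 156 ± 2.95 RPKM in DM-aKG and 131 ± 7.20 RPKM in control.

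**Figure D1:**
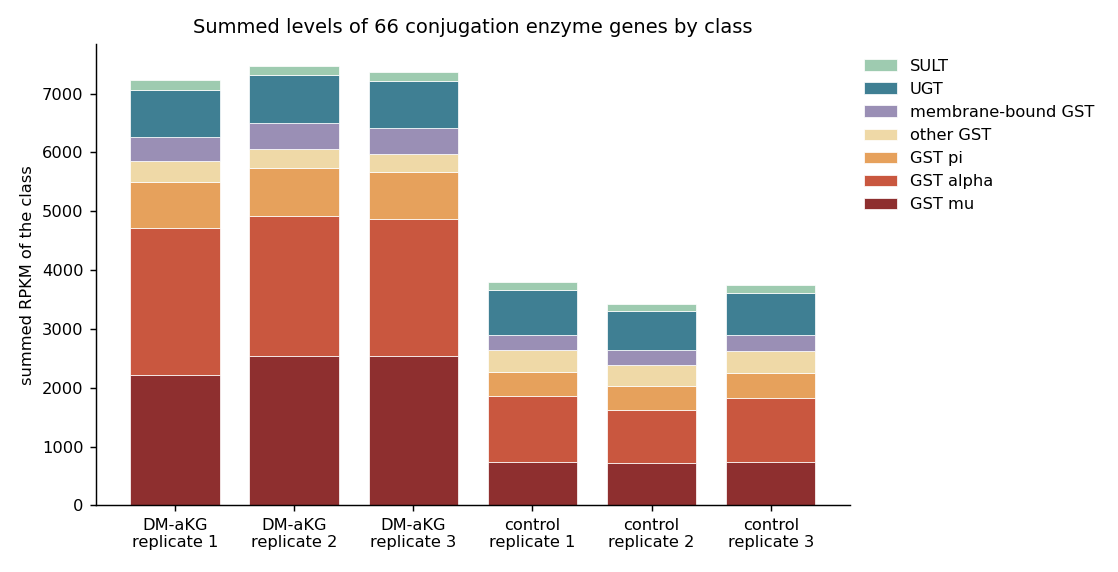
Summed RPKM of the 66 conjugation enzyme genes in each library, stacked by class (vertical axis in RPKM, 1 bar per library, DM-aKG left and control right). The bars of the mu and alpha classes are taller in every DM-aKG library (2216 to 2548 RPKM for mu and 2321 to 2496 RPKM for alpha) than in the control libraries (721 to 746 RPKM for mu and 903 to 1107 RPKM for alpha), while the UGT and SULT segments differ little in height.

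Of the 66 members, 37 had a mean of at least 1 RPKM over the 6 libraries and were tested with limma on log2(RPKM + 0.5), with p-values adjusted over all 10852 genes that passed. A gene was called at an adjusted p under 0.05. Of the 37 tested members 30 were called (55.6% of all tested genes were). In DM-aKG 23 members were higher (30.9% of all tested genes were) and 7 were lower (24.7% of all tested genes were), and 7 were not called. In each of the 30 called members the 3 DM-aKG libraries lay wholly on one side of the 3 controls, in 23 above (35.3% of all tested genes) and in 7 below (28.9%). The median log2 difference, DM-aKG minus control, was 0.58 over the 37 members and 0.02 over all tested genes. A log2 difference above 1 with a call was reached by 7 members, 6 of them GST genes, and by 2.68% of all tested genes. All of this describes the members, which were not compared with other lists.

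**Figure D2:**
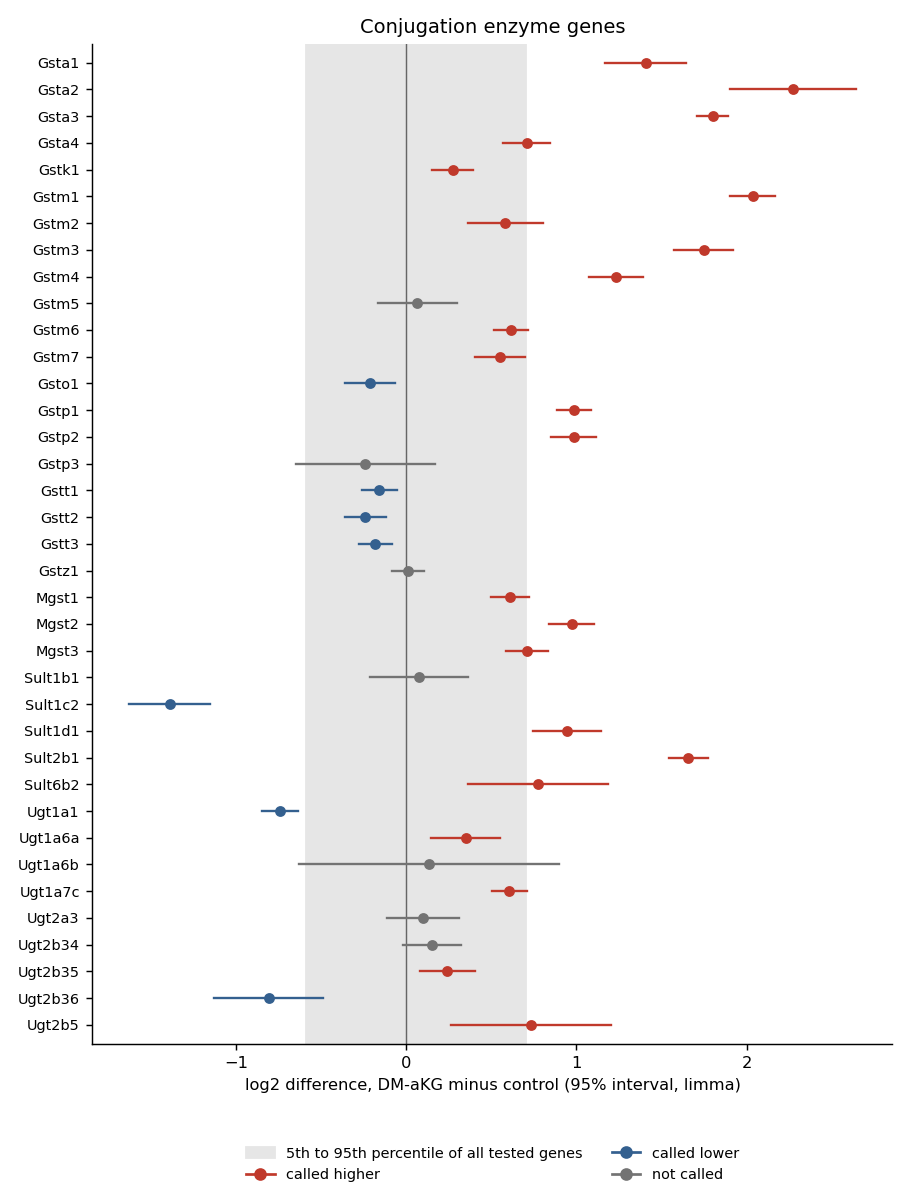
Log2 difference of each tested member, DM-aKG minus control (horizontal axis, points with 95% intervals from limma), in the order of their symbols, against the range from the 5th to the 95th percentile of all 10852 tested genes (grey band). The alpha and mu genes Gsta1, Gsta2, Gsta3, Gstm1, Gstm3 and Gstm4 and the sulfotransferase gene Sult2b1 lie above 1, and Sult1c2 at -1.39 is the lowest.

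In the alpha class 4 of 4 genes rose (30.9% of all tested genes did). Gsta1 was at 1718, 1587 and 1536 RPKM in the DM-aKG libraries and at 670, 515 and 652 RPKM in the control libraries, a log2 difference of 1.41 ± 0.10 (SE; limma, adjusted p = 4.47e-05). By level Gsta1 stood at rank 5 of all 24956 genes in DM-aKG and at rank 100 in control. Gsta2 was at 56.6, 52.0 and 83.8 RPKM in DM-aKG and at 12.1, 12.3 and 13.5 RPKM in control, the largest log2 difference among the members at 2.27 ± 0.16 (limma, adjusted p = 3.73e-05). All DM-aKG values of Gsta2 lie above the controls, and replicate 3 is the highest of them. Gsta3, whose mouse enzyme is known for detoxifying the epoxide of aflatoxin, was at 119, 122 and 115 RPKM in DM-aKG and at 34.3, 33.6 and 33.3 RPKM in control (log2 difference 1.80 ± 0.04; limma, adjusted p = 3.26e-07). Gsta4, an enzyme specialised in the lipid peroxidation product hydroxynonenal, was at 602, 624 and 586 RPKM in DM-aKG and at 390, 342 and 379 RPKM in control. Its log2 difference of 0.71 ± 0.06 (limma, adjusted p = 8.01e-05) was the smallest of the class. The ratio of Gsta1 to Gsta4, a pair picked after its values were seen, was 2.67 ± 0.163 in DM-aKG and 1.65 ± 0.124 in control.

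Gsta1 and Gsta2 are not separable with certainty. Of the 50-base windows of the longest coding transcript of Gsta1 in GENCODE, 89.7% occur unchanged in transcripts of other genes, 82.9% in Gm3776, and of those of Gsta2 64.2% do, 44.8% in Gsta1. Gm3776, which is listed under a name outside the rule, was at 419, 377 and 307 RPKM in DM-aKG and at 122.7, 89.2 and 110.6 RPKM in control. The sources used here do not say how reads that match several genes were assigned, so the levels of Gsta1 and Gsta2 are uncertain, whereas Gsta3 and Gsta4 shared 0% of their windows. On GRCm38, the assembly that mm10 names, Gsta4 (78182774 to 78209349), Gsta1 (78230656 to 78242684) and Gsta2 (78331018 to 78355788) lie side by side on chromosome 9, and Gsta3 lies on chromosome 1, 21240589 to 21265661, plus strand.

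In the mu class 6 of 7 genes rose (30.9% of all tested genes did). Gstm1 was at 870, 966 and 962 RPKM in DM-aKG and at 229, 219 and 234 RPKM in control, a log2 difference of 2.03 ± 0.06 (limma, adjusted p = 6.53e-07). Gstm3, the most abundant mu gene here, was at 1176, 1393 and 1407 RPKM in DM-aKG and at 399, 384 and 396 RPKM in control (log2 difference 1.75 ± 0.07; limma, adjusted p = 3.87e-06). Both genes were lowest in replicate 1 among the DM-aKG libraries, yet far above every control. Gstm3 moved to rank 14 of all genes by level in DM-aKG, against rank 137 in control. Gstm4 was at 20.9, 23.6 and 22.7 RPKM in DM-aKG and at 9.53, 9.78 and 8.48 RPKM in control (log2 difference 1.23 ± 0.07; limma, adjusted p = 1.22e-05). The rises of Gstm2, Gstm6 and Gstm7 were smaller, with log2 differences of 0.58 ± 0.09, 0.61 ± 0.04 and 0.55 ± 0.06. Gstm6 averaged 70.4 ± 1.61 RPKM in DM-aKG and 45.9 ± 1.78 RPKM in control, and Gstm7 averaged 15.8 ± 0.860 RPKM in DM-aKG and 10.6 ± 0.752 RPKM in control.

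Gstm5 was the mu gene without a call. It was at 25.7, 20.6 and 19.0 RPKM in DM-aKG and at 20.2, 20.2 and 21.4 RPKM in control, so the groups overlap (log2 difference 0.07, 95% interval -0.17 to 0.30; limma, adjusted p = 0.600), and the sign turned without DM-aKG replicate 1 (-0.057), under quantile normalization (-0.011) and with array weights (-0.052). The 7 genes form a cluster on chromosome 3, from 107895821 at Gstm5 to 108044894 at Gstm4, with Gstm5 on the plus strand and the others on the minus strand. Shared windows made up 23.1% of the Gstm1 transcript, 28.8% of Gstm3, 11.5% of Gstm6 and 9.36% of Gstm2, and 0% of Gstm4, Gstm5 and Gstm7.

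**Figure D3:**
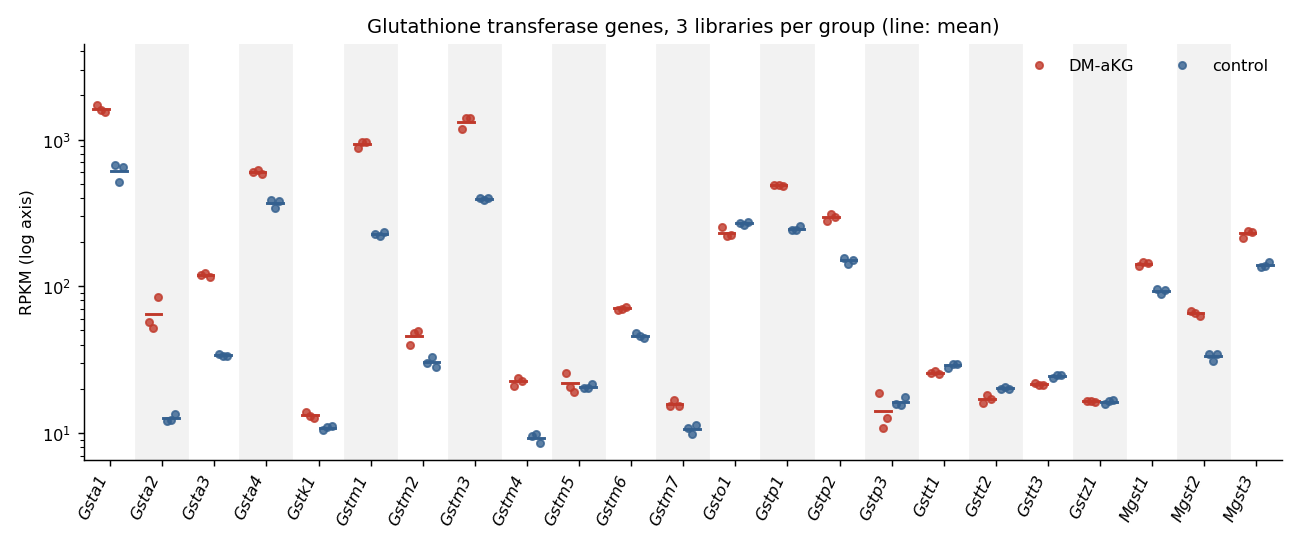
RPKM on a log axis of the 23 tested glutathione transferase genes in each library (points; lines are means of 3), with DM-aKG left of control in each column. The alpha and mu genes Gsta1, Gsta3, Gstm1 and Gstm3 show wide gaps between the groups, Gsto1 and the theta genes lie slightly lower in DM-aKG, and Gstm5, Gstp3 and Gstz1 overlap.

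The pi genes Gstp1 and Gstp2 rose by almost the same amount, while Gstp3 was not called. Gstp1, a transferase that is also known to bind the stress kinase JNK, was at 489, 492 and 485 RPKM in DM-aKG and at 243, 241 and 257 RPKM in control (log2 difference 0.98 ± 0.04; limma, adjusted p = 4.87e-06). Gstp2 was at 280.1, 312 and 297 RPKM in DM-aKG and at 157, 142 and 150.2 RPKM in control (log2 difference 0.98 ± 0.06; limma, adjusted p = 1.47e-05). The transcripts of these neighbours on chromosome 19 share 62.3% of the windows of Gstp1 and 64.3% of those of Gstp2, so the division of reads between them is uncertain. Gstp3, with 0% shared, was at 18.8, 10.7 and 12.5 RPKM in DM-aKG and at 15.8, 15.5 and 17.4 RPKM in control (log2 difference -0.24, 95% interval -0.65 to 0.17; limma, adjusted p = 0.276). DM-aKG replicate 1 is the only library of that group above the controls, and without it Gstp3 was lower, with a log2 difference of -0.46 (limma, adjusted p = 0.00136).

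All membrane-bound transferases rose, 3 of 3 (30.9% of all tested genes did). Mgst1, which protects membranes of the endoplasmic reticulum and mitochondria from lipid peroxides, was at 137, 145 and 143 RPKM in DM-aKG and at 96.0, 88.1 and 94.2 RPKM in control (log2 difference 0.61 ± 0.05; limma, adjusted p = 5.87e-05). Mgst2, which can also make leukotriene C4, averaged 65.5 ± 2.36 RPKM in DM-aKG and 33.2 ± 2.20 RPKM in control (log2 difference 0.97 ± 0.06; limma, adjusted p = 1.62e-05). Mgst3 averaged 229 ± 12.6 RPKM in DM-aKG and 139.6 ± 5.15 RPKM in control (log2 difference 0.71 ± 0.05; limma, adjusted p = 4.94e-05). None of these 3 transcripts shares a window with another gene.

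Genes of the remaining GST classes changed little or fell. All 3 tested theta genes were lower (24.7% of all tested genes were), with log2 differences of only -0.16 to -0.24. Gstt2 averaged 17.1 ± 1.05 RPKM in DM-aKG and 20.2 ± 0.348 RPKM in control (log2 difference -0.24 ± 0.05; limma, adjusted p = 0.00578). Gstt3 averaged 21.5 ± 0.468 RPKM in DM-aKG and 24.4 ± 0.759 RPKM in control (log2 difference -0.18 ± 0.04; limma, adjusted p = 0.00755), and 26.0% of its windows occur in another gene, so its level is uncertain. The differences of Gstt2 and Gstt3 are small, and their groups do not overlap. Gstt1 averaged 25.7 ± 0.559 RPKM in DM-aKG and 28.8 ± 1.13 RPKM in control (limma, adjusted p = 0.0169), and the adjusted p by limma was above the threshold without control replicate 2 (0.0557) or 3 (0.0728) or DM-aKG replicate 3 (0.0598). Gsto1, which reduces dehydroascorbate and removes glutathione from proteins, was at 255, 219.6 and 222 RPKM in DM-aKG and at 270.3, 263 and 272 RPKM in control (log2 difference -0.21 ± 0.06; limma, adjusted p = 0.0210). The adjusted p of Gsto1 by limma was above the threshold when control replicate 1 (0.0626) or 3 (0.0762) or DM-aKG replicate 2 (0.0781) or 3 (0.0696) was left out. Gstk1, the transferase of mitochondria and peroxisomes, averaged 13.2 ± 0.663 RPKM in DM-aKG and 10.8 ± 0.359 RPKM in control and rose by 0.27 ± 0.05 (limma, adjusted p = 0.00322). Gstz1, the maleylacetoacetate isomerase of tyrosine breakdown, averaged 16.4 ± 0.115 RPKM in DM-aKG and 16.3 ± 0.455 RPKM in control, with a 95% interval of the log2 difference from -0.09 to 0.10.

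The windows around the start sites of the members were searched for the core of the antioxidant response element, TGACNNNGC, which NRF2 with a small MAF partner is known to bind, on both strands. RefSeq (GRCm38.p6) gave 70 windows of 300 bases, 250 before and 50 after a start, for 58 of the 66 members. The letters occurred in 4 of these windows (5.71%) and in 4071 of the 32851 windows of all genes (12.4%). All windows with a match are shown, with the match in capitals, 5′ to 3′ along the gene. Of these 4 genes 3 rose, as did 23 of the 37 tested members, so the count says nothing about the letters.
Gsta3, chr1:21240335-21240634, plus strand: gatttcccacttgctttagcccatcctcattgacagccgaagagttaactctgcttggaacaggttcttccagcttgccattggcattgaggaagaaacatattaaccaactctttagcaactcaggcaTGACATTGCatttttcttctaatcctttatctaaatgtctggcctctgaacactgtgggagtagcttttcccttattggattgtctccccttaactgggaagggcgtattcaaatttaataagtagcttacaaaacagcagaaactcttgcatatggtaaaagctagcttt
Gstm7, chr3:107931565-107931864, minus strand: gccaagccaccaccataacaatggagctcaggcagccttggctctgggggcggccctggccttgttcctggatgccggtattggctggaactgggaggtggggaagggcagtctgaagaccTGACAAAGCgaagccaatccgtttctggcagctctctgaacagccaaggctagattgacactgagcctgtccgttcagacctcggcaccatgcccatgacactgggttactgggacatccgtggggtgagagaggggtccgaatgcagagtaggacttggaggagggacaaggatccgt
Mgst1, chr6:138140277-138140576, plus strand: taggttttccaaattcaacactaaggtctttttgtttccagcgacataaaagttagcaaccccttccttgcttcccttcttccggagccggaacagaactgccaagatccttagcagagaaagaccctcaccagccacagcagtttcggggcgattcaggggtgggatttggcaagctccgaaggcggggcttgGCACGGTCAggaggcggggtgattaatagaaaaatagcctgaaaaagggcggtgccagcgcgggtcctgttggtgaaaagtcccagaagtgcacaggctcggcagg
Gstm5, chr3:107895604-107895903, plus strand: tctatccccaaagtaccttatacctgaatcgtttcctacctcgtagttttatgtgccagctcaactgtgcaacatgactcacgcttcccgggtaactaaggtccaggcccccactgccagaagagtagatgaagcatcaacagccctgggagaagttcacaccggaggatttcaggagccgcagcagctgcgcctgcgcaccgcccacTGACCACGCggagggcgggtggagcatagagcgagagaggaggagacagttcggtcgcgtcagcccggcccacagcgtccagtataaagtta
The match begins at base 130 of the window in Gsta3, at base 122 in Gstm7 and at base 209 in Gstm5, and in Mgst1 it lies on the opposite strand at base 195. Gstm5, the gene of this set without a call, holds the letters as well, and the steeply risen Gsta1, Gsta2, Gstm1 and Gstm3 do not hold them in these windows. The core of the xenobiotic response element bound by the aryl hydrocarbon receptor, GCGTG, occurred in 13 of the 70 windows (18.6%) and in 32.4% of all windows. The genes with it that rose are Gsta1, Gsta2, Gstm1, Gstp1, Mgst3, Sult1d1 and Sult2b1. Those without a call are Gstp3, Gstm5 and Sult1b1, and Ugt1a5 was not tested. Of all 37 tested members 23 rose, and Gsta3, Gstm3 and Gstm4, which rose, have no copy. In Gstm5 a copy of GCGTG overlaps the antioxidant match, on the opposite strand. A match is a string of letters and not a shown binding site, and its absence from these windows says nothing about the factor.

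Of 9 tested UGT genes 4 were higher (30.9% of all tested genes were), 2 lower (24.7% of all tested genes were) and 3 not called, shares near those over all genes. At the Ugt1a locus on chromosome 1, 88055388 to 88220002, the genes are known to start at separate first exons and to share the remaining exons. Ugt1a1, the enzyme that conjugates bilirubin, was at 46.3, 45.8 and 48.2 RPKM in DM-aKG and at 81.6, 74.7 and 79.6 RPKM in control, with no overlap (log2 difference -0.74 ± 0.05; limma, adjusted p = 2.16e-05). Ugt1a7c was at 136, 135 and 136 RPKM in DM-aKG and at 93.4, 88.3 and 85.6 RPKM in control, and rose by 0.61 ± 0.04 (limma, adjusted p = 4.14e-05). The ratio of Ugt1a7c to Ugt1a1 was 2.94, 2.94 and 2.83 in DM-aKG libraries and 1.15, 1.18 and 1.07 in control libraries, a description of a pair picked after its values were seen. Ugt1a6a, an enzyme for small phenols, averaged 39.3 ± 5.06 RPKM in DM-aKG and 30.6 ± 0.807 RPKM in control (log2 difference 0.35 ± 0.09; limma, adjusted p = 0.0111). Its near copy Ugt1a6b was at 44.4, 36.0 and 16.9 RPKM in DM-aKG and at 22.2, 26.4 and 34.9 RPKM in control, with overlapping groups (log2 difference 0.13, 95% interval -0.63 to 0.90). The sign for Ugt1a6b turned without DM-aKG replicate 1 (-0.14), and without DM-aKG replicate 3 it was called higher (log2 difference 0.54; limma, adjusted p = 0.0479).

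Of the windows of Ugt1a1 58.2% occur in other genes, and of those of Ugt1a7c 69.3% do. The annotated transcript of Ugt1a7c holds 100% of the windows of Ugt1a6a and 80.7% of those of Ugt1a6b, so these 3 genes in particular cannot be separated with certainty, and all levels within the locus are uncertain. The table nevertheless lists Ugt1a2, Ugt1a5 and Ugt1a10 at no more than 0.18 RPKM in any library. Ugt1a9, also below the filter, was at 2.41, 0.52 and 0.45 RPKM in DM-aKG and at 0.30, 0.20 and 0.81 RPKM in control, high in a single library. The start windows of the pair that moved apart are shown to let the separate promoters be compared, with the bases from the start site on in capitals, RefSeq on GRCm38.p6.
Ugt1a1, chr1:88211709-88212008, plus strand: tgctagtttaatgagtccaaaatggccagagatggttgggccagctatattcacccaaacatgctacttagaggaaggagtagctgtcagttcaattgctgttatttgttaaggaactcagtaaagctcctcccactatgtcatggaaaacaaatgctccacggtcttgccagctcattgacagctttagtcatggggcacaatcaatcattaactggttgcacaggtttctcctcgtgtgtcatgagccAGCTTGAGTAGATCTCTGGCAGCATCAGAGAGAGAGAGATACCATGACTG
Ugt1a7c, chr1:88094751-88095050, plus strand: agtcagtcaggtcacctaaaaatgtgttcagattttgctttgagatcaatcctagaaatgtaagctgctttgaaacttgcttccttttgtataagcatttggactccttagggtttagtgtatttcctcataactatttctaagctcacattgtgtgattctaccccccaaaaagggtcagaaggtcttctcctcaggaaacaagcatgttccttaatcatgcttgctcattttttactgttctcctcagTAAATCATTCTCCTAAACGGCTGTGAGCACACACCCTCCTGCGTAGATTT
Neither window holds TGACNNNGC or GCGTG on either strand.

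The Ugt2 genes, whose enzymes conjugate steroids and bile acids among others, lie on chromosome 5 and were dominated by Ugt2b34. It was at 390, 427 and 424 RPKM in DM-aKG and at 408, 340.1 and 373 RPKM in control and made up 51.5% of the UGT sum in DM-aKG and 52.2% in control. Its groups overlap (log2 difference 0.15, 95% interval -0.02 to 0.32; limma, adjusted p = 0.117), and it was called higher without control replicate 1 (limma, adjusted p = 0.0436) or DM-aKG replicate 1 (0.0449). Ugt2b35 was at 96.3, 98.1 and 96.2 RPKM in DM-aKG and at 90.1, 73.6 and 82.7 RPKM in control (log2 difference 0.24 ± 0.07; limma, adjusted p = 0.0200). Ugt2b35 missed the threshold without control replicate 3 (limma, adjusted p = 0.0556) or DM-aKG replicate 2 (0.0622). Ugt2b5 was at 13.7, 16.3 and 16.0 RPKM in DM-aKG and at 11.6, 6.13 and 10.2 RPKM in control (log2 difference 0.73 ± 0.20; limma, adjusted p = 0.0164), and its adjusted p by limma was above the threshold without DM-aKG replicate 2 (0.0562) or 3 (0.0503). Windows shared with other genes made up 41.7% of its transcript, mostly with Ugt2b38. Ugt2b36 went the other way, at 3.83, 2.69 and 2.56 RPKM in DM-aKG and 5.97, 4.93 and 5.94 RPKM in control (log2 difference -0.81 ± 0.14; limma, adjusted p = 0.00196). Ugt2a3 averaged 18.5 ± 1.77 RPKM in DM-aKG and 17.2 ± 1.80 RPKM in control (log2 difference 0.10, 95% interval -0.11 to 0.31), and the sign turned with array weights (-0.021).

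**Figure D4:**
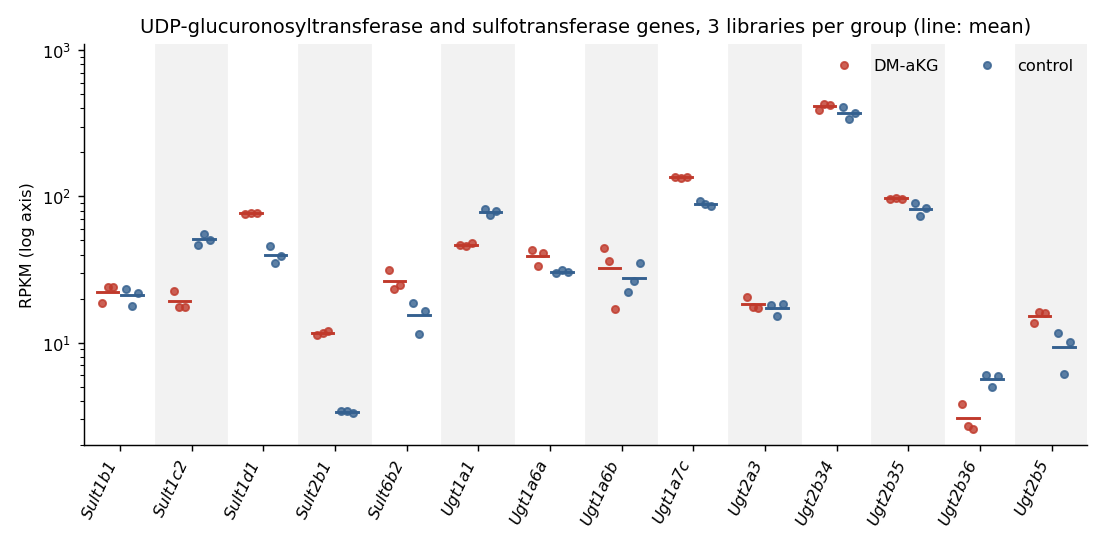
RPKM on a log axis of the 5 tested sulfotransferase and 9 tested UDP-glucuronosyltransferase genes in each library (points; lines are means of 3), with DM-aKG left of control in each column. Sult1c2, Ugt1a1 and Ugt2b36 are below all controls in each DM-aKG library, Sult1d1, Sult2b1 and Ugt1a7c are higher, and Sult1b1, Ugt1a6b, Ugt2a3 and Ugt2b34 overlap.

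Of 21 sulfotransferase genes only 5 passed the filter, and these moved apart. Sult2b1, which adds sulfate to cholesterol and pregnenolone, had the steepest rise, at 11.3, 11.7 and 12.1 RPKM in DM-aKG and 3.38, 3.38 and 3.31 RPKM in control (log2 difference 1.66 ± 0.05; limma, adjusted p = 7.93e-07). Sult1d1, which in mice sulfates dopamine and other catecholamines, was at 75.6, 77.0 and 77.0 RPKM in DM-aKG and at 45.5, 34.9 and 39.0 RPKM in control (log2 difference 0.94 ± 0.09; limma, adjusted p = 1.11e-04). Both groups of values are well separated, and the controls of Sult1d1 spread more widely than the DM-aKG libraries. Sult6b2 was at 31.3, 23.2 and 24.8 RPKM in DM-aKG and at 18.6, 11.4 and 16.3 RPKM in control (log2 difference 0.77 ± 0.18; limma, adjusted p = 0.00728). Sult1c2 was the member with the largest fall. It was at 22.4, 17.4 and 17.6 RPKM in DM-aKG and at 46.7, 55.3 and 50.4 RPKM in control, with a wide gap between the groups (log2 difference -1.39 ± 0.10; limma, adjusted p = 4.65e-05). Sult1c2 thus made up 12.2% of the SULT sum in DM-aKG and 39.0% in control, and Sult1d1 48.9% in DM-aKG and 30.3% in control. Sult1b1, an enzyme for thyroid hormones and phenols, was at 18.6, 23.9 and 24.1 RPKM in DM-aKG and at 23.4, 17.9 and 21.8 RPKM in control (log2 difference 0.07, 95% interval -0.21 to 0.36), and its sign turned without control replicate 2 (-0.034). The 5 transcripts shared at most 0.723% of their windows with other genes. Sult2b1 lies on chromosome 7, 45729983 to 45784669, Sult1d1 on chromosome 5, 87554645 to 87569027, and Sult1c2 on chromosome 17, 53829637 to 53846339, all on the minus strand.

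The 29 members below the filter were nearly silent. Of these, 12 were listed at 0 in all 6 libraries, among them the estrogen sulfotransferase gene Sult1e1, Sult1c1, both Sult3a genes and 7 of the 8 Sult2a genes, whose products act on bile acids and steroids in liver. Of the other 17, Ugt1a9 alone reached 0.5 RPKM in a library, and the remaining 16 were at most 0.43 RPKM. The phenol sulfotransferase gene Sult1a1 was at 0.14, 0.43 and 0.43 RPKM in DM-aKG and at 0.12, 0.33 and 0.19 RPKM in control. Gsto2 and Gstt4 were the GST genes below the filter, with Gsto2 at 0.24 to 0.31 RPKM in DM-aKG and 0.18 to 0.41 RPKM in control.

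Of the tested members 17 shared no window with another gene, at a length of 50 bases. In DM-aKG 11 of these were higher (30.9% of all tested genes were), 2 lower (24.7% of all tested genes were) and 4 not called. Control replicate 2 was the lowest control in 21 of the 37 tested members (56.8%), Gsta1, Sult1d1, Sult6b2 and Ugt2b5 among them, and in 37.0% of all tested genes. Without it and DM-aKG replicate 1, 24 members were called higher and 8 lower, among them each of the 30 called from all 6 libraries.

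Transcripts for the supply of glutathione and most of those for UDP-glucuronate were higher in DM-aKG, whereas those for the sulfate donor went both ways. All differences called in these lists are from the same limma fit at an adjusted p under 0.05. Lists of these and other related genes were described by their counts and medians, to be read against the 30.9% of all tested genes that were higher, the 24.7% that were lower and their median of 0.02. All 5 genes of glutathione supply were higher (median log2 difference 1.25), led by the cystine transporter gene Slc7a11. It was at 56.6, 64.6 and 66.4 RPKM in DM-aKG and at 8.95, 8.22 and 7.30 RPKM in control (log2 difference 2.87 ± 0.08). Gclc, the catalytic subunit of glutamate-cysteine ligase, averaged 64.9 ± 0.879 RPKM in DM-aKG and 16.8 ± 0.672 RPKM in control, and the glutathione synthetase gene Gss averaged 102 ± 11.1 RPKM in DM-aKG and 44.3 ± 0.177 RPKM in control. Of 5 genes of UDP-glucuronate supply 4 were higher and 0 lower (median 0.56), and Pgm2 was not called (log2 difference -0.16; limma, adjusted p = 0.219). Ugdh, the dehydrogenase that makes UDP-glucuronate, was at 159, 176 and 172 RPKM in DM-aKG and at 93.6, 77.8 and 86.1 RPKM in control (log2 difference 0.98 ± 0.07). Slc35d1, the carrier that takes it into the endoplasmic reticulum, averaged 13.9 ± 1.33 RPKM in DM-aKG and 5.89 ± 0.235 RPKM in control, and Ugp2, which makes the precursor UDP-glucose, rose by 0.56 ± 0.05. The list of PAPS supply also holds genes for steps other than making the donor. In it 2 of 7 tested genes were higher and 4 lower (median -0.14), the latter Papss1, Impad1, Slc35b2 and Bpnt1. The synthases of PAPS moved apart, Papss2 to 34.7 ± 6.51 RPKM in DM-aKG against 16.1 ± 1.61 RPKM in control, and Papss1 to 24.1 ± 2.77 RPKM in DM-aKG against 34.8 ± 0.269 RPKM in control. The sulfate transporter gene Slc26a2 rose by 0.60 ± 0.11, and the phosphatase gene Impad1, which clears the by-product of sulfation in the Golgi, fell by 0.28 ± 0.05 on the log2 scale.

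Of 11 tested genes for pumps and carriers listed under conjugate export, 8 were higher and 2 lower (median 0.90). The 8 include the pump genes Abcc1 to Abcc5. They also include Abcb1a (log2 difference 0.35) and the carrier genes Slc51a (0.40) and Slc51b (0.90), which are not specific pumps of conjugates. The apical pump gene Abcc2 was at 126, 139 and 138 RPKM in DM-aKG and at 61.6, 56.9 and 56.3 RPKM in control (log2 difference 1.20 ± 0.06). The basolateral pump gene Abcc3 was at 73.5, 82.2 and 83.6 RPKM in DM-aKG and at 28.1, 25.4 and 26.1 RPKM in control (log2 difference 1.57 ± 0.06). Abcc1, which exports glutathione conjugates, rose by 1.33 ± 0.08, while Abcc6 averaged 1.31 ± 0.505 RPKM in DM-aKG and 3.23 ± 0.0814 RPKM in control and Abcc10 averaged 4.38 ± 0.115 RPKM in DM-aKG and 5.41 ± 0.0666 RPKM in control, both lower. In the mercapturate pathway, which trims glutathione conjugates, 4 of 8 tested genes were higher (30.9% of all tested genes were) and 0 lower (median 0.24), with Acy1 at 0.67 ± 0.05, Acy3 at 0.59 ± 0.07 and the dipeptidase gene Dpep1 at 0.47 ± 0.07. Of 6 tested genes for a glucuronidase, sulfatases or sulfatase-modifying factors, 1 was higher (Arsg) and 1 lower (Arsa), with a median of -0.11. The sulfatase gene Sts, also on this list, was not among the genes with values. Other genes of the GST fold or of the protein family of the membrane-bound transferases had 2 higher (Clic1 and Clic4) and 2 lower of 6 tested (median 0.11), with Clic6 lower by a log2 difference of -0.82 ± 0.13 and Clic5 by one of -0.30 ± 0.09. Other sulfotransferases, mostly of heparan sulfate and tyrosine, had 0 higher and 3 lower of 5 tested (median -0.17), namely Ndst1, Hs2st1 and Ndst2. Ndst2 missed the threshold on leaving out any library but DM-aKG replicate 1 (limma, adjusted p = 0.0650 to 0.158), and Clic5 without control replicate 3 (0.0612) or DM-aKG replicate 2 (0.0567).

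**Figure D5:**
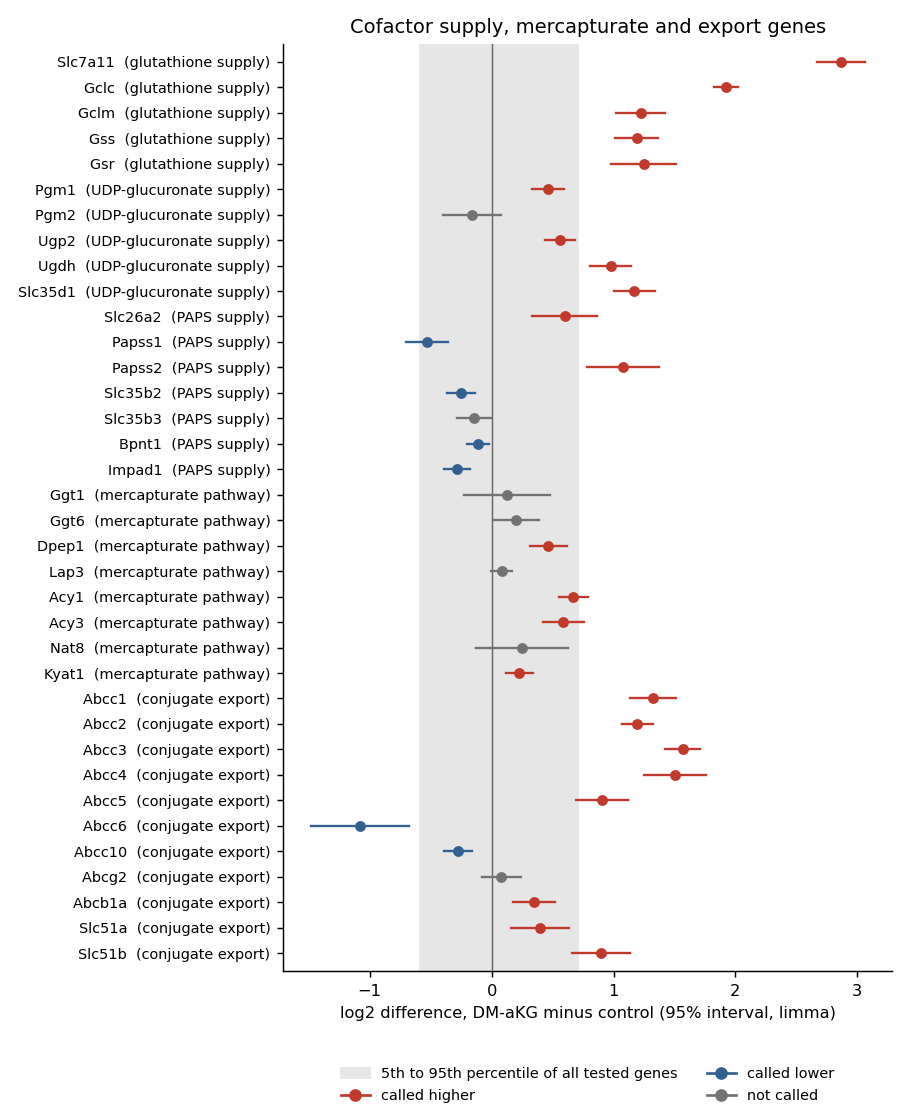
Log2 difference, DM-aKG minus control (horizontal axis, points with 95% intervals from limma), of the tested genes for cofactor supply, the mercapturate pathway and conjugate export, against the 5th to 95th percentile of all tested genes (grey band). All 5 genes of glutathione supply and the points of the pumps Abcc1 to Abcc5 lie right of the band, whereas the PAPS genes stand on both sides of 0. The points of Ugdh, Slc35d1, Papss2 and Slc51b lie right of the band too, and that of Abcc6 lies left of it.

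Among 19 tested genes for regulators of conjugation enzymes, 5 were higher and 5 lower (median 0.02), shares near those over all genes. Nfe2l2, which encodes NRF2, averaged 60.9 ± 2.77 RPKM in DM-aKG and 59.9 ± 4.77 RPKM in control (log2 difference 0.03 ± 0.06), and its sign turned under median centring (-0.023), for example. Ahr, the gene of the aryl hydrocarbon receptor, averaged 4.96 ± 0.318 RPKM in DM-aKG and 4.84 ± 0.297 RPKM in control, and its sign turned under median centring too (-0.015). Both were picked after their values were seen. Mafg, a small MAF partner of NRF2, rose by 0.62 ± 0.05, the bile acid receptor gene Nr1h4 rose by 0.50 ± 0.07, Nr1i3, the gene of the constitutive androstane receptor, by 0.65 ± 0.13, Keap1, the repressor of NRF2, by 0.27 ± 0.09 and Mafk by 0.19 ± 0.05, and Ppara fell by 0.43 ± 0.05. The genes of the intestinal transcription factors Cdx2 (log2 difference -0.81 ± 0.13), Hnf4a (-0.32 ± 0.04) and Cdx1 (-0.16 ± 0.05) fell too. The call of Cdx1 was lost on leaving out any library but DM-aKG replicate 1, with adjusted p by limma of 0.0531 to 0.0944. Keap1, whose groups overlap, missed the threshold without control replicate 1 or 3 or DM-aKG replicate 2 or 3 (limma, adjusted p = 0.0879 to 0.112), and Mafk without control replicate 3 (0.0657) or DM-aKG replicate 3 (0.0556). All 8 NRF2 targets outside conjugation were higher (median 1.07), led by Nqo1, Me1 and Srxn1, the last at 75.3 ± 8.06 RPKM in DM-aKG and 20.5 ± 1.77 RPKM in control. Of 3 tested targets of the aryl hydrocarbon receptor 2 were higher and 0 lower (median 1.27), and Tiparp was not called (log2 difference -0.16; limma, adjusted p = 0.225). Cyp1a1 averaged 14.2 ± 0.533 RPKM in DM-aKG and 4.18 ± 0.347 RPKM in control (log2 difference 1.65 ± 0.06), and Cyp1b1 at 2.74, 1.56 and 1.61 RPKM in DM-aKG and 0.45, 0.53 and 0.53 RPKM in control.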

How the data were processed

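RNA-seq of 6 libraries of Apc Min intestinal organoids (3 DM-aKG, 3 control) was used. The authors deposited RPKM values with 2 decimals for 24956 genes by symbol, and columns were matched to samples by title. CASAVA 1.8, HISAT2 2.0.4, Partek and mm10 are named per the submitters' processing notes; these sources do not give their roles, the annotation, the strand or the handling of reads that match several genes. RPKM holds no counts, so no count test was run. RPKM is scaled by library, so abundant genes that change shift the rest slightly. Values were tested as log2(RPKM + 0.5) with limma 3.58.1 in R 4.3.3 (two-sided, mean-variance trend, no replicate block) for genes with a mean of at least 1 RPKM, with Benjamini-Hochberg adjustment over 10852 genes; differences on this scale understate changes of low genes. The fit was checked beforehand on artificial data with known differences, in which far fewer genes changed than were called here. It recovered 66.7% of log2 differences of 0.5 and 96.0% of those of 1, with 99 genes of each size. The step of 1 read was read from the lowest values of short RNA genes (miRNA, snoRNA, up to 150 bases); of other low values, 90.9% to 94.4% were whole within 0.05 reads. Positions come from GENCODE M21 and start windows from RefSeq; the window of 50 bases for shared sequence is a choice, as the read length is not given. Tables and plots were made with matplotlib 3.10.9, pandas 2.3.3 and numpy 2.4.6 under Python 3.11.15. The members and lists were chosen with earlier results of these data known, so their counts are descriptions. Members of at least 1 RPKM are all described, and related lists are represented by up to 3 genes with the smallest p and by those that went against the rest (the called genes where as many were higher as lower, of which 1 is not reported here).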

Additional observations from a re-analysis of the deposited data

How the results depend on the processing

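All 30 member calls held with a pseudocount of 0.1 or 1, a filter of 0.3 RPKM or none, median centring, quantile normalization, an equal RPKM sum, eBayes without trend and the replicate block. Among related genes, Keap1 lost its call with no filter (limma, adjusted p = 0.0684), median centring (0.0751) and quantile normalization (0.0989). Cdx1 lost it with no filter (0.0522), an equal RPKM sum (0.0975) and eBayes without trend (0.0506). Ndst2 lost it with no filter (0.0896), a filter of 0.3 RPKM (0.0537) and an equal RPKM sum (0.110). Across 17 alternatives 21 to 24 members were called higher and 5 to 8 lower, against 23 and 7; the counts over all tested genes ran from 4748 to 7712 and those of related genes from 50 to 67 (58 with all libraries). Leaving out 1 library at a time gave 4748 to 6860 genes in all, 21 to 24 members higher and 5 to 8 lower, and 50 to 64 related genes, and lost Gsto1, Gstt1, Ugt2b35 or Ugt2b5 in some of those fits. Equal replicate numbers do not pair the libraries (correlations of their deviations -0.08, -0.11 and 0.01), and with the replicate block 23 members were higher and 7 lower, with 5748 genes called in all. Genes without a call changed sign in places. Median centring gave Gstz1 -0.040, Nfe2l2 -0.023 and Ahr -0.015. Quantile normalization gave Gstm5 -0.011, Gstz1 -0.057 and Nfe2l2 -0.057. Array weights gave Gstm5 -0.052, Gstz1 -0.013, Ugt1a6b -0.17, Ugt2a3 -0.021 and Nfe2l2 -0.015, and added calls of Gstp3 (lower) and Ugt2b34 (higher). Without both control replicate 2 and DM-aKG replicate 1, Gstm5 was at -0.070, Ugt1a6b at -0.17, Ugt2a3 at -0.064 and Nfe2l2 at -0.069. Leaving out 1 library at a time gave -0.057 to 0.16 for Gstm5, -0.014 to 0.025 for Gstz1, -0.034 to 0.19 for Sult1b1, -0.14 to 0.54 for Ugt1a6b, -0.033 to 0.081 for Nfe2l2 and -0.015 to 0.078 for Ahr. The cause of these turns was not tested. The median of all tested genes moved between -0.03 and 0.06 with the scaling.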
